A study of Mus musculus with 6 samples.

Results

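The genes described here encode the constitutive proteasome: the proteolytic core, the particles that feed or open it, and the factors that build it. They were taken by name, as the protein-coding genes of the mouse annotation whose symbols start with Psma to Psmg and a number. The inducible immunoproteasome subunits Psmb8, Psmb9 and Psmb10 were left out. All 48 genes with such a name had at least 10 estimated reads over the 6 libraries and were kept, out of 18506 genes tested. They comprise 16 subunits of the 20S core, 17 subunits of the 19S regulatory particle, 4 genes of the PA28 activator, 2 other regulators of the core (Psme4 and Psmf1) and 7 assembly chaperones. The remaining 2 genes, Psmc3ip and Psme3ip1, carry such a name but are not subunits.

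The 20S core is a barrel of stacked rings. Its outer alpha rings form the gate, and its inner beta rings hold the protease sites. The 19S particle binds ubiquitinated proteins, removes the ubiquitin and threads the chain into the core with a ring of ATPases. PA28 and PA200 open the core without using ubiquitin or ATP. In macrophages the proteasome degrades the inhibitors that hold NF-kappaB in the cytoplasm and cuts the peptides shown on MHC class I. Interferon-gamma exchanges its constitutive catalytic subunits for the inducible ones.

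The cells were BMDMs, macrophages grown from mouse bone marrow for 7 days. They were then held for 8 hours in serum-free medium at 2.1% oxygen per the labels, a condition called hypoxia serum starvation (HSS) that is used as a culture model of ischemia. The study set 3 libraries of WT (LysM-Cre+/- Drp1+/+) against 3 of Drp1KO (LysM-Cre+/- Drp1fl/fl) BMDMs, so both genotypes carried Cre. DRP1, encoded by Dnm1l, is the GTPase that divides mitochondria. Cre is driven by the promoter of the myeloid lysozyme gene, so deletion depends on Cre activity in each cell. The mice were adults of both sexes, marrow was pooled within a genotype, and the labels call the libraries biological replicates. Whether each library came from its own pool of mice is not given in the sources used here, so that p-values measure the spread between these libraries. There was no library without HSS.

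The libraries held 23389488 to 32231206 estimated reads. Dnm1l was at 72.7, 69.9 and 75.1 CPM (read counts scaled to a normalized library size) in WT libraries 1 to 3 and at 58.7, 60.7 and 66.3 CPM in Drp1KO libraries 1 to 3. Every Drp1KO library was below every WT library, but the log2 fold change was small at -0.23 (edgeR, adjusted p = 0.248). Gene-level counts cannot separate reads of a deleted exon from the rest. All 8 macrophage markers examined were expressed, with a summed level of 13817 to 14229 CPM in WT and 12246 to 14703 CPM in Drp1KO libraries. Of the markers of other cells, those of neutrophils summed to 6.09 to 19.5 CPM in WT and 17.4 to 45.2 CPM in Drp1KO libraries, with Ly6g at 0. Those of dendritic cells reached at most 65.0 CPM with Cd209a at 0, those of fibroblasts 2.93 CPM and those of lymphocytes 0.881 CPM. None of these other markers had an adjusted p under 0.05 (edgeR), but with same-numbered libraries fitted as pairs the neutrophil markers S100a8, S100a9 and Ngp were higher in Drp1KO BMDMs (log2 fold change 1.31, 1.35 and 1.37 in the paired fit, adjusted p = 0.00145, 7.9e-05 and 0.00264, edgeR). Among macrophage markers Fcgr1 was higher, and Csf1r and Mertk were lower, in Drp1KO BMDMs in both fits. The part of these markers in the results for proteasome genes was not tested. In bulk RNA, a change in the share of a cell type cannot be told apart from a change of RNA per cell.

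The sequences just upstream of the subunit genes are shown here for 3 members. Psmc6 and Psmd1 are the 2 members that passed the test, in opposite directions. Psmb5 encodes the catalytic subunit with chymotrypsin-like activity. Each is the 250 bases before the start of the canonical transcript in GRCm39, read 5′ to 3′ on the strand of the gene, with motif matches in capitals. None of these 3 windows overlapped an annotated exon. The positions are chr14:45566965-45567214, plus strand, for Psmc6; chr1:85991847-85992096, plus strand, for Psmd1; and chr14:54855482-54855731, minus strand, for Psmb5.
Psmc6: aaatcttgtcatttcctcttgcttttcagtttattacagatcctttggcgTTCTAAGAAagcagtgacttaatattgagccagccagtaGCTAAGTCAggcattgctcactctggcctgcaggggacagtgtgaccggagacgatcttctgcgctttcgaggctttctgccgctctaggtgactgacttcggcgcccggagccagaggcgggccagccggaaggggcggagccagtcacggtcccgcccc
Psmd1: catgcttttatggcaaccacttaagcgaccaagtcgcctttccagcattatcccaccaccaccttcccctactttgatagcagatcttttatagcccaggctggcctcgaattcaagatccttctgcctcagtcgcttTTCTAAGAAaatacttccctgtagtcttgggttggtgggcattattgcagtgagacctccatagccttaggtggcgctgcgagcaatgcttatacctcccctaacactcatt
Psmb5: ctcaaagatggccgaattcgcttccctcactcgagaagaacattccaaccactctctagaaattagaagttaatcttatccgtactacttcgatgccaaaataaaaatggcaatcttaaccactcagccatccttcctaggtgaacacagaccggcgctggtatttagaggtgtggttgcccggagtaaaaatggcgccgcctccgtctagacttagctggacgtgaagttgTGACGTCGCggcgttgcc

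The motifs were searched on both strands in the same window of all 48 members and of 15921 protein-coding genes tested. The antioxidant response element core TGACNNNGC, which NRF1 and NRF2 are known to bind, was in 7 member windows (14.6%), against 10.3% of all windows. Among them were Psmb5, Psmb6, Psmc6, Psmd12, Psmd9 and Psmg2. The interferon-stimulated response element core, searched as a pair of GAAA repeats 2 bases apart, was in 6 member windows (12.5%, among them Psma4, Psma5, Psmb3, Psmd4 and Psmd9), against 3.25% of all. The gamma-activated site TTCNNNGAA was in 4 member windows (8.33%: Psmc6, Psmd1, Psmd3 and Psmg1), against 6.84% of all. Psmc6 and Psmd1 held the same letters, TTCTAAGAA, starting 200 and 112 bases before the transcript start. In Psmc6 the antioxidant element lay 161 bases before the start, and in Psmb5 it lay 18 bases before it. No window of the PA28 or immunoproteasome genes held any of the 3 motifs. The windows of Psmb9, Psme1, Psme2 and Psme2b overlapped annotated exons, as did some windows of other genes. That of Psmb9 lay wholly in exons of Tap1, and that of Psme2 wholly in exons of Rnf31 and of Psme2 itself. The absence of a match in these windows therefore does not describe all sequence upstream of these genes. A match is a description of letters and does not show binding.

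Proteasome genes were among the more abundant mRNAs of these cells. The deposited effective length exceeded the transcript length, which can distort TPM, in 12 of 223 member transcripts with 2.80% of the reads, among them the canonical transcripts of Psmc3, Psmd3 and Psmd9. In TPM, a level that takes transcript length into account, the median member was at the 85.7th percentile of all genes tested, and 45 of 48 members lay above the median of all genes, which was 4.32 TPM. Subunits of 1 ring are needed in equal number in the particle, but their mRNA levels were not equal. Leaving aside Psma8, a subunit known from testis, the WT level in the alpha ring ran from 25.5 ± 2.16 TPM for Psma2 to 198 ± 12.3 TPM for Psma4 (SD, n = 3), a ratio of 7.78. In the beta ring, leaving aside the thymic subunit Psmb11, it ran from 28.4 ± 1.54 TPM for Psmb2 to 341 ± 36.2 TPM for the caspase-like subunit Psmb6. Psmb2 shares stretches of near-identical sequence with other genes, among them Dnajc14 (149 bases, 14190 reads against 2264), so its level is uncertain. The spread within a ring was far larger than the spread between libraries, which does not cover errors in assigning reads to genes.

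In the 19S particle, the ATPases ran from 33.8 ± 2.01 TPM (Psmc2) to 171 ± 6.56 TPM (Psmc6) in WT BMDMs. The non-ATPase subunits ran from 15.8 ± 1.72 TPM (Psmd3) to 290.1 ± 36.1 TPM (Psmd8), both of the lid that removes ubiquitin. The PA28 subunit Psme1 had the highest level of all members, at 474 ± 59.1 TPM in WT and 587 ± 56.8 TPM in Drp1KO BMDMs. Its partner Psme2 stood at 252 ± 30.0 and 326 ± 51.4 TPM, and the nuclear PA28 subunit Psme3 at 47.4 ± 7.25 and 52.4 ± 2.71 TPM. Assembly chaperones were lower, with a WT median of 15.2 TPM and a range from 4.60 TPM (Psmg2) to 58.9 TPM (Psmg4). The lowest and the highest gene of the alpha, beta and ATPase rings were the same in both genotypes.

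**Figure D1:**
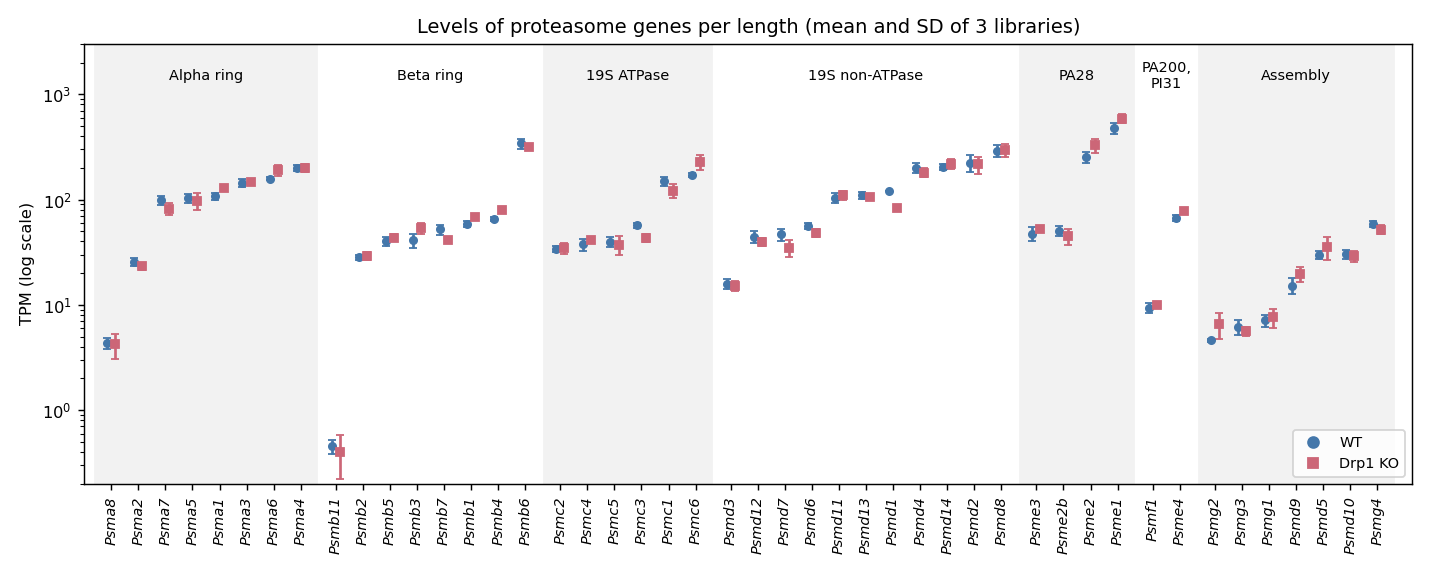
Level of 46 proteasome genes (without Psmc3ip and Psme3ip1) in TPM on a log axis, grouped by class, as the mean and SD of 3 WT (circles) and 3 Drp1KO (squares) libraries. Leaving aside Psma8 (4.33 TPM) and Psmb11 (0.455 TPM), levels within a class differ by up to 18.3 times in WT BMDMs (Psmd3 against Psmd8), while the 2 genotypes lie close together for most genes.

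The tissue-restricted subunits were near the bottom. Psma8 was at 2.93, 2.55 and 3.10 CPM in WT and 2.95, 3.94 and 1.72 CPM in Drp1KO libraries. Psmb11 was at 1.16, 1.54 and 1.36 CPM in WT and 0.636, 1.71 and 1.41 CPM in Drp1KO libraries, with 225 estimated reads in all. Both groups overlapped for both genes, and every library was above the floor of 3 reads, which is 0.0917 to 0.136 CPM and covers counting error only. Psmb11 also shares stretches of near-identical sequence with other genes, so its reads are uncertain.

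Library number bore on these values, as deviations from the group mean correlated between libraries of the same number (r = 0.510, 0.204 and 0.298), although those of WT library 2 and Drp1KO library 3 did so too (r = 0.326). WT library 1 was the highest WT library for 36 of 48 members (75.0%) and for 16 of 17 subunits of the 19S particle (94.1%), against 38.9% of all genes. Drp1KO library 1 was the highest of its genotype for 28 members (58.3%) and for 13 of the 19S subunits (76.5%), against 37.4% of all genes. The median 19S subunit, relative to its WT mean, stood at 0.20, -0.05 and -0.10 (log2) in WT libraries 1 to 3 and at 0.13, -0.07 and -0.18 in Drp1KO libraries 1 to 3. For the core the same values were 0.10, -0.04 and -0.04 against 0.10, 0.23 and 0.10, and for PA28 0.24, -0.09 and -0.16 against 0.23, 0.23 and 0.16. Thus the difference between library numbers was larger than that between genotypes for the 19S particle, and WT library 1 was at the level of Drp1KO libraries for the core and PA28.

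**Figure D2:**
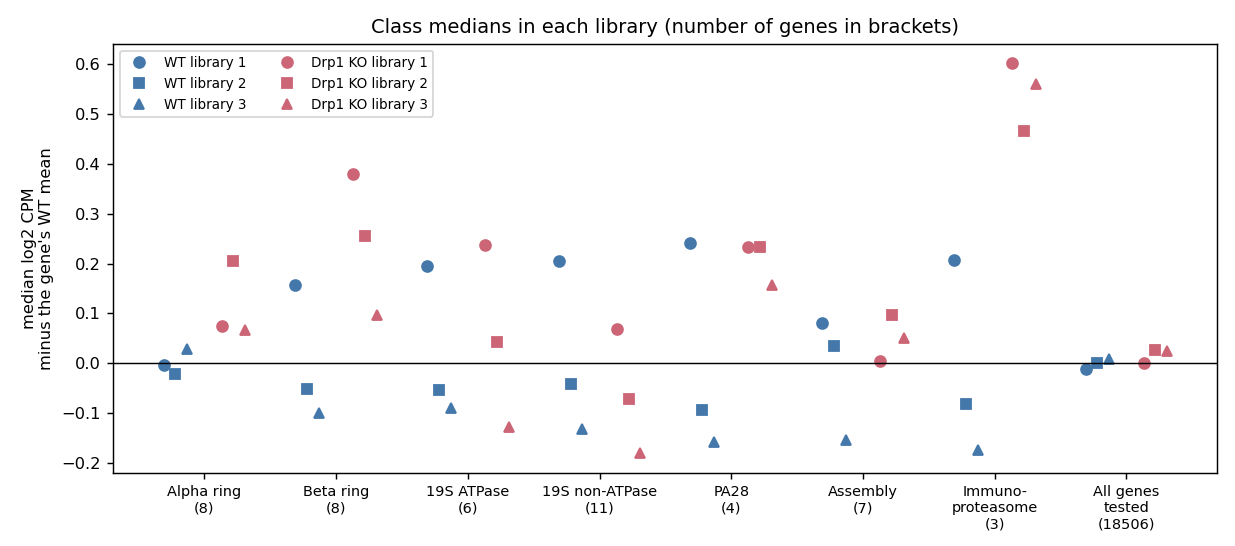
Median over the genes of each class of the log2 CPM minus the WT mean of the gene, for each of 6 libraries, with WT in blue, Drp1KO in red and a symbol for each library number. In the 19S classes, libraries 1 of both genotypes lie at the top, while the 3 immunoproteasome genes stand at 0.47 to 0.60 in Drp1KO and at or below 0.21 in WT libraries.

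The comparison of genotypes asked whether loss of DRP1 under HSS goes with a different level of proteasome mRNA. A log2 fold change above 0 was found in 34 of 48 members and one below 0 in 14, and the median was 0.06, against 0.00 for all genes tested, of which 50.6% were above 0. With edgeR's quasi-likelihood test and Benjamini-Hochberg adjustment over all genes, 1 member rose and 1 fell at an adjusted p under 0.05 (2 of 48). Of all genes, 3.36% passed this test (2.29% higher and 1.06% lower). With DESeq2, 2 members were higher and 1 lower at an adjusted p under 0.05 (Psma1 in addition), beside 6.24% of all genes (3.58% higher and 2.66% lower). By the study's criteria, a fold change of over 25% with an unadjusted p under 0.05, 7 members were higher and 1 was lower, beside 12.7% of all genes (7.19% higher and 5.48% lower). The study applied these criteria to DESeq2, while this count takes them from the edgeR fit. With DESeq2 they gave 6 members higher and 1 lower, beside 6.36% and 5.38% of all genes. In place of 7 members in the edgeR fit, 1 was higher without WT library 2 (5.63% of all genes), 2 without WT library 3 (6.04%) and 10 without WT library 1 (8.65%). The levels of the groups did not overlap for 10 members on the higher side and 2 on the lower side, beside 21.9% of all genes (11.7% higher and 10.3% lower). The share of members with an adjusted p under 0.05 was thus near that of all genes.

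Libraries that share a number were also fitted as pairs, with the number as a block (the paired fit). There 7 members were higher and 2 lower at an adjusted p under 0.05 (edgeR), beside 12.0% of all genes (6.73% higher and 5.22% lower). Those higher were Psma1, Psma6, Psmb1, Psmb3, Psmb4, Psmc6 and Psme1, and those lower were Psmd1 and Psmd7. The adjusted p (edgeR) was 0.00240 for Psmc6, 0.00122 for Psmd1 and 0.0287 for Psmb1. The higher genes thus comprised 5 of 16 core subunits, 1 of 17 subunits of the 19S particle and 1 of 4 PA28 genes. Psmb1, a beta subunit without a protease site, is named here after its values were seen, and its log2 fold change was 0.30 in both fits. Transcripts of Psmb1 share stretches of near-identical sequence with other genes, among them Cltc (146 bases, 233934 reads against 11211), so its count is uncertain. With libraries 2 and 3 of each group only, 7 members were higher and 1 lower at an adjusted p under 0.05 (edgeR), beside 10.5% of all genes (5.94% higher and 4.56% lower). These were Psma1, Psma6, Psmb3, Psmb4, Psmc6, Psme1 and Psme2 on the higher side and Psmd1 on the lower side. By the study's criteria, 7 members were higher and 2 lower in the paired fit, and 8 were higher and 3 lower with libraries 2 and 3 only. All genes past these criteria were 15.4% in the paired fit (8.66% higher and 6.71% lower) and 17.3% with libraries 2 and 3 only (9.31% higher and 7.99% lower).

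The 2 members that passed both belong to the base of the 19S particle, and they moved in opposite directions. Psmc6 (ENSMUSG00000021832) lies at chr14:45567215-45587169 of GRCm39, on the plus strand, and encodes RPT4, an ATPase of the ring that unfolds substrates. It was at 131, 122 and 117 CPM in WT libraries 1 to 3 and at 163, 209.6 and 190.5 CPM in Drp1KO libraries 1 to 3. All Drp1KO libraries were above all WT libraries, and Drp1KO library 1 was the closest to WT. The log2 fold change was 0.61 (SE 0.110, adjusted p = 0.0159, edgeR), a fold change of 1.52.

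Psmd1 (ENSMUSG00000026229) lies at chr1:85992097-86070048, on the plus strand, and encodes RPN2, a scaffold on which the other parts of the particle dock. It was at 246, 241 and 223 CPM in WT libraries and at 178, 167 and 158 CPM in Drp1KO libraries. The groups were well apart, with a log2 fold change of -0.50 (SE 0.0921, adjusted p = 0.0180, edgeR). In TPM the contrast was as clear, at 121 ± 0.607 against 83.3 ± 1.23 TPM (SD, n = 3 each). The ratio of Psmc6 to Psmd1 in TPM was 1.37, 1.46 and 1.41 in WT and 2.19, 2.99 and 2.98 in Drp1KO libraries. This ratio was chosen after both values were seen and is given as a description.

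The canonical coding transcript Psmc6-201 carried 82.0% of the reads of Psmc6, and it stood at 107, 93.2 and 95.6 CPM in WT and 136, 176 and 157 CPM in Drp1KO libraries. Psmd1-201 carried 99.0% of the reads of Psmd1. No other quantified gene shared exon bases with Psmc6, while Psmd1 shared 252 exonic bases with Htr2b on the opposite strand, a gene with 596 reads against 33194 for Psmd1. It also shared 301 exonic bases with Gm21972 on the same strand, a gene with 49 reads. Both calls were lost when WT library 2, WT library 3, Drp1KO library 2 or Drp1KO library 3 was left out, with adjusted p-values (edgeR) of 0.0508 to 0.118 for Psmc6 and 0.0566 to 0.106 for Psmd1. Their log2 fold changes stayed between 0.53 and 0.69 and between -0.55 and -0.46. With length-scaled counts the call of Psmc6 was also lost (0.48, adjusted p = 0.0725, edgeR).

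**Figure D3:**
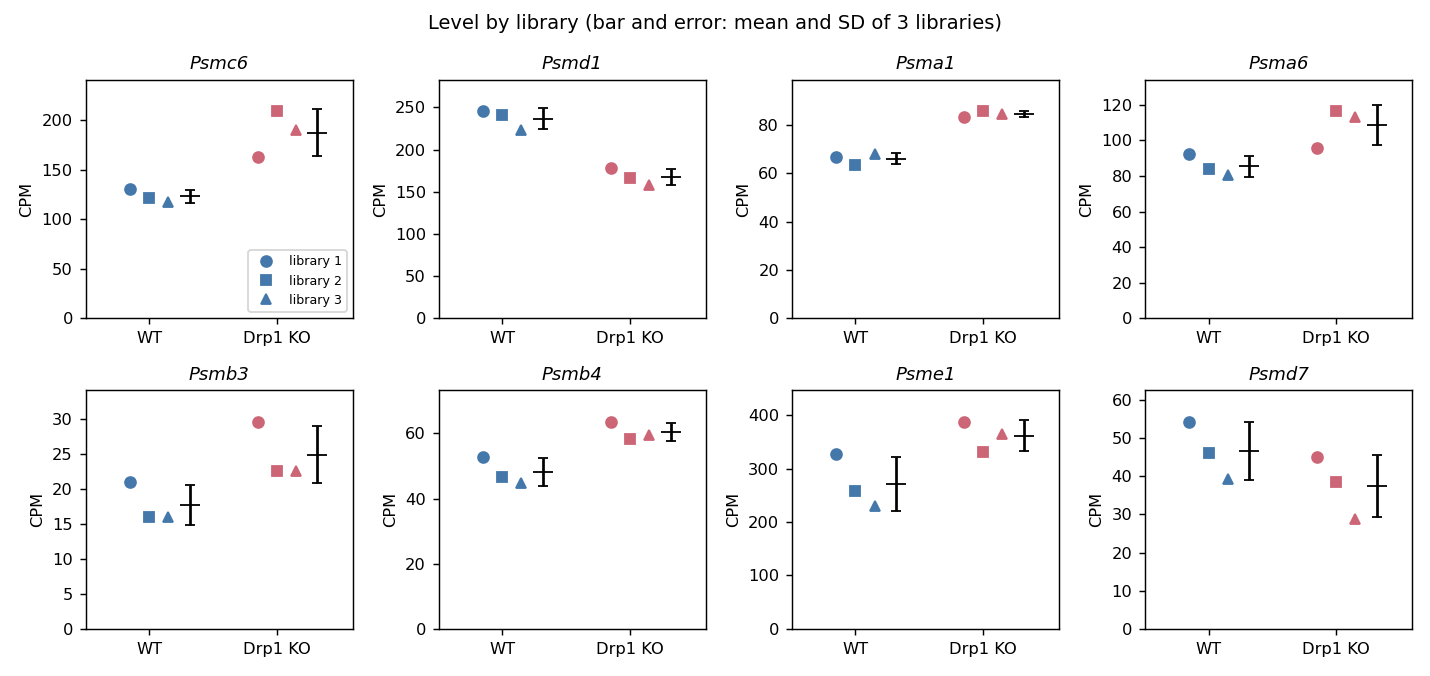
Level in CPM of 8 proteasome genes in WT (blue) and Drp1KO (red) libraries, with a symbol for each library number and a bar and error for the mean and SD of 3 libraries. The groups are apart for Psmc6, Psmd1, Psma1, Psma6, Psmb3, Psmb4 and Psme1 and overlap for Psmd7.

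In the 20S core, no subunit had an adjusted p under 0.05 (edgeR), while 5 of 16 had an unadjusted p under 0.05, beside 16.4% of all genes, and each of the 5 was higher in Drp1KO BMDMs. The log2 fold changes had their median at 0.11 (0.22 without Drp1KO library 3), 13 subunits were above and 3 below 0, and the groups did not overlap for 6 subunits, each higher (11.7% of all genes were higher without overlap). The medians of the alpha and beta rings were 0.09 and 0.23. With DESeq2, 1 core subunit (Psma1) had an adjusted p under 0.05.

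Psma1, an alpha ring subunit, came closest to the threshold. It was at 66.5, 63.4 and 67.8 CPM in WT and at 83.2, 85.8 and 84.6 CPM in Drp1KO libraries. Libraries of a genotype lay close together and the groups were apart, with a log2 fold change of 0.36 (SE 0.0858, adjusted p = 0.0523, edgeR, 0.0101 in the paired fit and 0.0136 with DESeq2). Psma6, of the same ring, was at 92.2, 83.7 and 80.5 CPM against 95.7, 117 and 113 CPM (log2 fold change 0.34, adjusted p = 0.123, and 0.0386 in the paired fit, edgeR). Here Drp1KO library 1 lay just above the highest WT library.

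In the beta ring, Psmb3 was at 21.0, 16.1 and 16.0 CPM in WT and at 29.7, 22.6 and 22.6 CPM in Drp1KO libraries (log2 fold change 0.49, adjusted p = 0.128, and 0.00453 in the paired fit, edgeR). Psmb4 was at 52.9, 46.5 and 44.7 CPM against 63.6, 58.3 and 59.6 CPM (0.33, adjusted p = 0.114, and 0.0165 in the paired fit, edgeR). Both are structural beta subunits without a protease site. In each genotype library 1 was the highest for both genes.

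None of the 3 constitutive catalytic subunits had an adjusted p under 0.05 (edgeR). Psmb5 was at 25.7, 21.2 and 21.8 CPM in WT and at 30.7, 25.1 and 25.0 CPM in Drp1KO libraries (log2 fold change 0.23, adjusted p = 0.411, edgeR). Psmb6 was at 184, 153 and 143 CPM against 170.0, 169 and 144 CPM (0.01, adjusted p = 0.989, edgeR). The trypsin-like subunit Psmb7 was at 41.8, 35.6 and 32.6 CPM against 34.8, 31.0 and 28.8 CPM (-0.22, adjusted p = 0.436, edgeR). The groups overlapped for all 3, and Psmb7 had the lowest log2 fold change of the core. As each library was left out, Psmb5 ran from 0.12 (without Drp1KO library 1) to 0.32 (without WT library 1) and Psmb7 from -0.31 (without WT library 3) to -0.12 (without WT library 1). Psmb7 shares 2817 exonic bases with Nek6 on the opposite strand (8965 reads against 5596). Transcripts of Psmb5 share stretches of near-identical sequence with other genes, among them Xdh (276 bases, 74903 reads against 4115) and Nopchap1 (352 bases, 42628 reads). The counts of both are therefore uncertain. The alpha subunit Psma7 was the next lowest, at -0.18 (adjusted p = 0.577, edgeR). With libraries 2 and 3 only the order was reversed, at -0.35 for Psma7 and -0.19 for Psmb7.

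Their inducible counterparts had higher mean values in Drp1KO BMDMs, with no adjusted p under 0.05 in the unpaired edgeR fit, while DESeq2 gave 0.00780 for Psmb9 and 0.0148 for Psmb10. Psmb9, which replaces Psmb6, was at 13.7, 13.0 and 10.6 CPM in WT and at 15.6, 22.9 and 20.9 CPM in Drp1KO libraries (log2 fold change 0.68, SE 0.165, adjusted p = 0.0561, and 0.0111 in the paired fit, edgeR). Psmb10, which replaces Psmb7, was at 13.6, 11.1 and 10.8 CPM against 17.9, 16.3 and 17.4 CPM (0.54, SE 0.130, adjusted p = 0.0545, and 0.00658 in the paired fit, edgeR). Psmb8, which replaces Psmb5, was at 75.5, 50.4 and 51.5 CPM against 90.3, 79.0 and 66.6 CPM (0.41, adjusted p = 0.253, and 0.0108 in the paired fit, edgeR), and its groups overlapped. The canonical transcript of Psmb9 shares 364 identical bases with the neighbouring gene Tap1, which had 22621 reads against 2751 for Psmb9, so its count is uncertain.

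The ratio of inducible to constitutive mRNA was taken in TPM for the 3 catalytic pairs, and it carries the uncertainty of the Psmb9, Psmb5 and Psmb7 counts. Psmb9 over Psmb6 was 0.0464, 0.0539 and 0.0416 in WT and 0.0549, 0.0880 and 0.0894 in Drp1KO libraries, a fold of 1.61. Psmb10 over Psmb7 was 0.265, 0.239 and 0.267 in WT and 0.411, 0.404 and 0.445 in Drp1KO libraries, a fold of 1.63. For both, all Drp1KO libraries were above all WT libraries. An exact two-sided permutation test of 3 against 3 libraries cannot give a p under 0.1, so these ratios are given as values. Psmb8 over Psmb5 was 2.31, 2.04 and 1.94 against 2.55, 2.69 and 2.29, and its groups overlapped (means 2.10 ± 0.193 and 2.51 ± 0.203). Psmb8 mRNA thus exceeded Psmb5 mRNA in every library, whereas Psmb9 and Psmb10 were below their counterparts in every library.

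**Figure D4:**
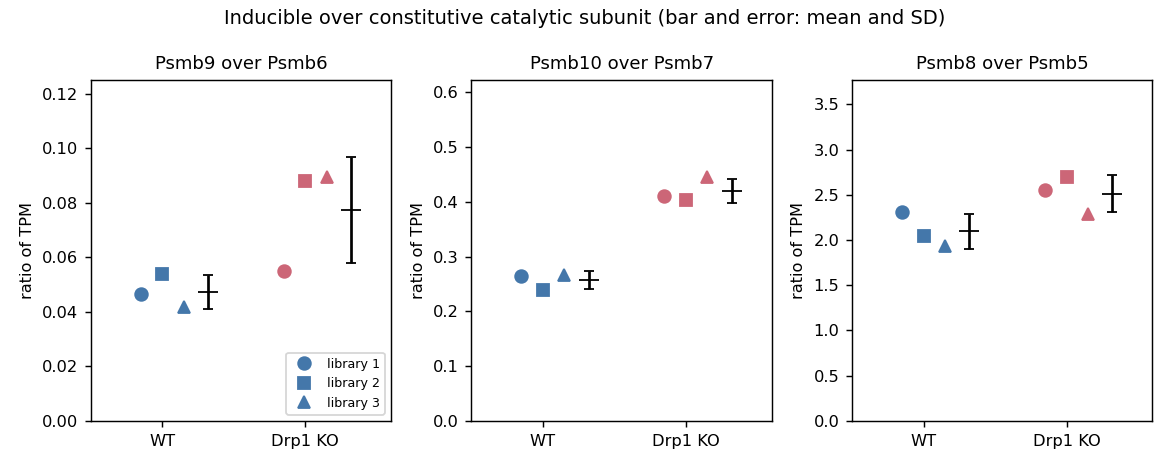
Ratio in TPM of each inducible catalytic subunit to its constitutive counterpart in 3 WT and 3 Drp1KO libraries, with a symbol for each library number and a bar and error for the mean and SD. The ratios of Psmb9 to Psmb6 and of Psmb10 to Psmb7 do not overlap between genotypes, with means of 0.0473 and 0.0774 and of 0.257 and 0.420 in WT and Drp1KO, while those of Psmb8 to Psmb5 overlap.

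The 19S regulatory particle had 8 subunits above and 9 below 0, with its median at -0.01 (between -0.11 and 0.08 as each library was left out). Apart from Psmc6 and Psmd1, no subunit had an adjusted p under 0.05 (edgeR), and 2 of 17 had an unadjusted p under 0.05 (16.4% of all genes). The ATPases had a median of 0.07 and the non-ATPase subunits of -0.05. After Psmc6, the highest values were those of the ATPase Psmc4 (0.18, adjusted p = 0.547, edgeR) and the lid subunit Psmd8 (0.13, adjusted p = 0.772, edgeR), with the ATPase Psmc2 at 0.12. As each library was left out, Psmc4 ran from 0.088 (without WT library 2) to 0.31 (without WT library 1) and Psmd8 from 0.0024 (without Drp1KO library 1) to 0.27 (without Drp1KO library 3). The lowest after Psmd1 were the lid subunit Psmd7 and the ATPase Psmc3 (-0.20, adjusted p = 0.475, edgeR).

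Psmd7 encodes RPN8, the partner of the deubiquitinase RPN11. It was at 54.3, 46.0 and 39.2 CPM in WT and at 44.9, 38.5 and 28.7 CPM in Drp1KO libraries (log2 fold change -0.32, adjusted p = 0.404, and 0.0243 in the paired fit, edgeR). The groups overlapped, but within each library number the Drp1KO value was lower. The log2 fold change was -0.48 without Drp1KO library 1, -0.19 without WT library 1 and -0.15 without Drp1KO library 3. Psmd2, the other large scaffold of the base, was at 268, 207 and 202 CPM against 268, 212 and 192 CPM (-0.01, adjusted p = 0.987, edgeR). Psmd6, named after its values were seen, was the other member with all Drp1KO libraries below all WT libraries, at 41.1, 42.0 and 41.9 CPM against 36.9, 39.7 and 39.8 CPM (-0.10, adjusted p = 0.664, edgeR).

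Of the activators, Psme1, which interferon-gamma is known to induce, was at 328, 257 and 229.7 CPM in WT and at 388, 331 and 365 CPM in Drp1KO libraries. The lowest Drp1KO library was just above the highest WT library (log2 fold change 0.41, SE 0.134, adjusted p = 0.145, and 0.0109 in the paired fit, edgeR). Psme2 was at 105, 86.2 and 77.5 CPM against 97.4, 110.0 and 103 CPM (0.21, adjusted p = 0.438, edgeR), and Psme3 at 46.7, 36.0 and 36.2 CPM against 49.5, 44.2 and 42.3 CPM (0.19, adjusted p = 0.510, edgeR). For both genes WT library 1 lay among the Drp1KO libraries, and without it the log2 fold changes were 0.33 for each. The lowest values were 0.10 for Psme2 (without WT library 3) and 0.11 for Psme3 (without WT library 2). Psme1 shared 2192 exonic bases with Emc9 on the opposite strand, and the strand setting of the quantification is not given in the sources used here. Emc9 had 1023 reads against 52505 for Psme1.

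Psme4, the PA200 activator, was at 202, 191 and 201 CPM against 218, 206 and 216 CPM (0.11, adjusted p = 0.620, edgeR). The groups did not overlap, though the difference was small. Psmf1, the inhibitor PI31, had a mean of 17.7 ± 1.57 CPM in WT against 18.4 ± 0.849 CPM in Drp1KO BMDMs (SD, n = 3 each), with overlapping groups.

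The transcripts of Psme2 had unlike values, which was noticed after the values were seen. The canonical coding transcript Psme2-208 took 67.8%, 71.5% and 62.2% of the reads of the gene in WT and 58.6%, 47.4% and 46.0% in Drp1KO libraries, without overlap. It was at 70.9, 61.6 and 48.2 CPM in WT and at 57.1, 52.2 and 47.2 CPM in Drp1KO libraries, with overlapping groups. The retained-intron transcript Psme2-207 was at 32.4, 24.2 and 27.7 CPM in WT and at 37.7, 53.6 and 51.1 CPM in Drp1KO libraries, with all Drp1KO libraries higher. With protein-coding transcripts only, the log2 fold change of Psme2 was -0.17 in place of 0.21. Psme2 shares 731 of its 2374 exonic bases with Rnf31 on the opposite strand (4320 reads against 16092), so without the strand setting the source of the retained-intron reads is uncertain. Of the 48 members, the canonical share was higher without overlap in 6 and lower without overlap in 9, beside 12.6% of all genes with a value (5.30% higher and 7.33% lower), which include genes with a single transcript.

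Psme2 also has a near-identical copy, Psme2b, with 99.4% identity over 795 bases, so that reads can be split between them. Psme2b was at 25.0, 21.6 and 25.9 CPM in WT and at 19.5, 25.8 and 23.8 CPM in Drp1KO libraries. With both added, the log2 fold change was 0.15 (adjusted p = 0.565, edgeR). A second split concerned the alpha subunit Psma3, which shares 665 identical bases with the processed pseudogene Gm13835. The pseudogene was assigned 13817 reads, more than the 12299 of Psma3 itself, and 10.8% of the reads of Psma3 lay on coding transcripts, against a median of 96.2% over the members. The level of Psma3 mRNA is therefore uncertain, while the sum of Psma3 and its 3 copies gave a log2 fold change of 0.03 (adjusted p = 0.939, edgeR), with 148 to 161 CPM in WT and 148 to 169 CPM in Drp1KO libraries.

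Of the assembly chaperones 6 of 7 were above 0, with the median at 0.02 (0.14 without WT library 1), and none had an adjusted p under 0.05 (edgeR), while 1 had an unadjusted p under 0.05 (16.4% of all genes) and 0 passed with DESeq2. Psmg2, which pairs with Psmg1 to start the alpha ring, was at 2.72, 2.55 and 2.21 CPM in WT and at 4.68, 4.16 and 2.64 CPM in Drp1KO libraries. Drp1KO library 3 lay within the WT range (log2 fold change 0.61, SE 0.248, adjusted p = 0.250, edgeR). Psmg2 shares 222 identical bases with Cep76 on the opposite strand (1178 reads against 521), so the count of Psmg2 is uncertain. Its partner Psmg1 had 0.16, and the second pair of alpha ring chaperones, Psmg3 and Psmg4, had 0.01 and -0.06. Of the chaperones of the 19S base, Psmd9 had a mean of 14.3 ± 1.12 CPM in WT against 17.0 ± 2.67 CPM in Drp1KO BMDMs (SD, n = 3 each), with groups just apart (log2 fold change 0.25, adjusted p = 0.437 by edgeR's test across all genes). Psmd5 and Psmd10 had 0.02 and 0.00.

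**Figure D5:**
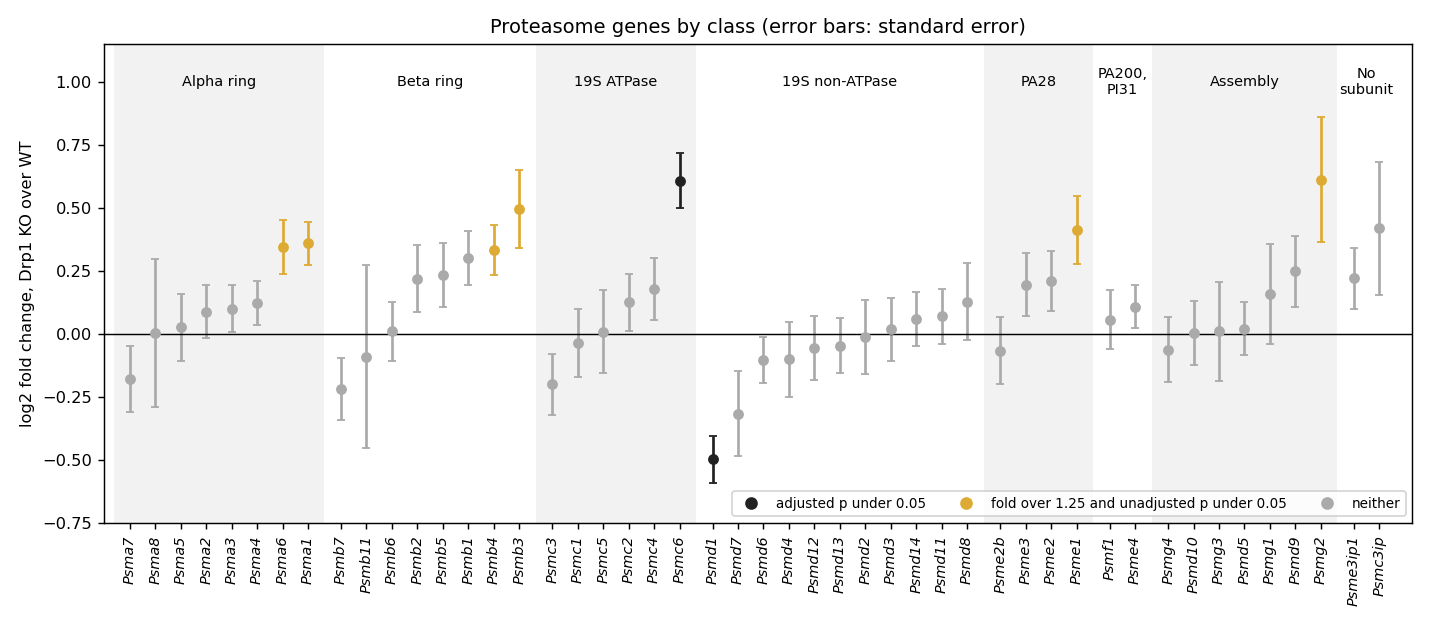
Log2 fold change of Drp1KO over WT BMDMs for each of the 48 proteasome genes, ordered within classes, with the standard error. Psmc6 and Psmd1 (black) have an adjusted p under 0.05, 6 further genes (yellow) pass a fold change of 25% with an unadjusted p under 0.05, and the medians of the core, the 19S particle and PA28 are 0.11, -0.01 and 0.20.

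The genes that work with the proteasome were read from a list of 29, of which 28 were measured. None had an adjusted p under 0.05 (edgeR), while 8 had an unadjusted p under 0.05 (16.4% of all genes) and 3 passed with DESeq2 (Psmb9, Psmb10 and Ubb), beside 6.24% of all genes. By the study's criteria 5 were higher and 0 lower, beside 7.19% and 5.48% of all genes, among them the 3 immunoproteasome subunits and Ubb, a stress-inducible gene for ubiquitin. Ubb was at 741, 635 and 580.3 CPM in WT and at 885, 944 and 775 CPM in Drp1KO libraries (log2 fold change 0.41, adjusted p = 0.105, and 0.00675 in the paired fit, edgeR). Every Drp1KO library was above every WT library. The paired fit called 5 of these genes higher (among them Psmb8, Psmb9, Psmb10 and Ubb) and 2 lower (Sem1 and, named after its values were seen, the segregase gene Vcp) at an adjusted p under 0.05 (edgeR), beside 6.73% and 5.22% of all genes.

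The list held 2 subunits of the 19S particle outside the name rule, and neither had an adjusted p under 0.05 in the unpaired fit. The ubiquitin receptor Adrm1 was at 56.1, 43.8 and 44.2 CPM in WT and at 64.4, 51.2 and 56.0 CPM in Drp1KO libraries (0.25, adjusted p = 0.376, edgeR), and its groups overlapped. With protein-coding transcripts only, its log2 fold change was -0.28, so its direction depended on the transcripts counted. The small subunit Sem1 was at 139.7, 126 and 108 CPM in WT and at 135, 80.1 and 65.7 CPM in Drp1KO libraries (-0.41, adjusted p = 0.416, edgeR, and 0.0243 in the paired fit). Drp1KO library 1 alone lay within the WT range, and the log2 fold change was -0.78 without it (adjusted p = 0.0132, edgeR) and -0.21 without Drp1KO library 3. Pomp, the maturation factor of the core, had 0.11 (adjusted p = 0.747, edgeR). Nfe2l1, which encodes NRF1, the factor known to raise proteasome genes when proteasome activity drops, was at 429, 349 and 329.6 CPM against 440.0, 400.4 and 352 CPM (0.11, adjusted p = 0.771, edgeR), with overlapping groups.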

How the data were processed

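RNA-seq was compared between 3 WT and 3 Drp1KO BMDM libraries, grouped by their labels, all after HSS. The authors quantified reads on transcripts with kallisto 0.46.1 and deposited estimated counts and TPM for 116873 transcripts per library. The build is GRCm39 per the labels, and DESeq2 1.44.0 is listed in the submitters' processing notes. The labels name a stranded mRNA kit, and the strand setting of the quantification is not given in the sources used here. The study's methods differ from the labels on the oxygen level, the extraction and library kits (no stranded kit is named) and the DESeq2 version, and the labels were followed here.

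Deposited estimated counts of transcripts matched by identifier to GENCODE (99.4%) were added per gene and rounded, and deposited TPM were added per gene. The deposited effective length exceeded the length of 17986 transcripts in at least 1 library, which can distort their TPM. Reads on unmatched transcripts were 0.542% to 0.575% of each library. Genes with at least 10 summed reads (18506) were tested with edgeR 4.0.16 (quasi-likelihood test, TMM factors, R 4.3.3) and Benjamini-Hochberg adjustment. CPM use the TMM-scaled library size, except that marker sums use the plain library size. Promoters were read from the GRCm39 genome and shared sequences were found with blastn 2.17.0. On simulated counts of 18130 genes with 200 changed 2-fold, 75% of the changed genes were recovered and 14 unchanged genes were called. The simulation held no effect of library number, and the changes of proteasome genes were smaller than 2-fold. It therefore does not give the share of such changes that would be recovered. No 2 libraries agreed within counting noise (chi-square per degree of freedom at least 9.50).

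Deviations from the group mean over 12248 genes correlated between libraries of the same number (r = 0.510, 0.204 and 0.298 for numbers 1 to 3). Among pairs of unlike number, r was -0.443 to 0.326, the highest for WT library 2 with Drp1KO library 3, so that the pairing is clear for number 1 only. A fit with the number as a block is given where it changes a call. The pairing comes from these deviations and not from the labels. Other alternatives were DESeq2 1.42.0, other scalings, filters and transcript sets, and each library left out.

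The genes, lists and motifs were chosen with earlier results of these data known. Genes were named if they passed either criterion, if they were PA28, PA200, PI31, assembly, catalytic or immunoproteasome genes, if they were among the 3 highest or lowest fold changes or the 2 highest or lowest TPM of the core or 19S particle, or if they were Adrm1, Sem1, Pomp, Nfe2l1, Dnm1l or a partner past either criterion. Other names were chosen after their values were seen. 1 partner on the list, Paaf1, was not analysed here. Some items on these lists are not reported here.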

Additional observations from a re-analysis of the deposited data

How the results depend on the processing

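The log2 fold changes of 43 named genes under 17 alternative settings gave 730 values, of which 55 changed sign. The alternative that added near-identical copies and the one with libraries 2 and 3 only were chosen after seeing the data. Against 1 proteasome gene higher at an adjusted p under 0.05 (edgeR), there were 2 with DESeq2 (3.58% of all genes), 2 with filterByExpr (2.95%), 2 with protein-coding transcripts only (2.53%), 0 with length-scaled counts (1.71%, where Psmc6 had a log2 fold change of 0.48 and an adjusted p of 0.0725, edgeR), 7 with the replicate block (6.73%) and 7 with libraries 2 and 3 only (5.94%), beside 2.29% of all genes in the unpaired fit. Against 1 lower, the replicate block gave 2 (5.22%). Among the genes named by the rule, the replicate block changed no call other than those the report gives for the paired fit. By the study's criteria, against 1 lower there were 2 with at least 1 summed count (4.89%), 2 with library size only (5.77%), 2 with the replicate block (6.71%) and 3 with libraries 2 and 3 only (7.99%).

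For the partner genes, against 0 higher at an adjusted p under 0.05 (edgeR) there were 3 with DESeq2, 4 with at least 1 summed count (2.68% of all genes), 1 with library size only (2.39%), 2 with protein-coding transcripts only, 5 with the replicate block and 5 with libraries 2 and 3 only. Against 0 lower, the replicate block and libraries 2 and 3 each gave 2. By the study's criteria, against 0 lower there were 1 with at least 1 summed count, 1 with the replicate block and 2 with libraries 2 and 3 only. The median of the assembly chaperones, 0.02, was 0.17 with length-scaled counts and 0.14 with libraries 2 and 3 only. The cause of these changes was not tested.

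With each library left out in turn, proteasome genes called at an adjusted p under 0.05 (edgeR) were 0 to 3 higher and 0 to 1 lower (0.768% to 2.89% and 0.232% to 2.27% of all genes), and by the study's criteria 1 to 10 higher and 1 to 2 lower (5.63% to 8.65% and 4.29% to 7.81%). Partner genes were 0 to 4 higher and 0 to 1 lower, and by the study's criteria 2 to 6 higher and 0 to 2 lower. Class medians ran from 0.030 to 0.12 for all members, 0.074 to 0.22 for the core, -0.11 to 0.079 for the 19S particle, 0.11 to 0.33 for PA28 and -0.032 to 0.14 for the assembly chaperones. Of other named genes that kept their sign, Adrm1 (0.15 to 0.38), Nfe2l1 (0.015 to 0.22), Pomp (0.010 to 0.20), Psma7 (-0.31 to -0.044), Psmb8 (0.29 to 0.62), Psmc2 (0.031 to 0.20), Psmc3 (-0.28 to -0.10), Psmd9 (0.10 to 0.33), Psme4 (0.065 to 0.14) and Psmg1 (0.0076 to 0.22) moved by over 1.5 times.

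The genes whose sign changed had log2 fold changes of at most 0.25 in size, and these values follow by setting. With DESeq2, the value was -0.0078 for Psma8, -0.0026 for Psmb6, -0.0073 for Psmd10 and -0.00080 for Psmg3. With at least 1 summed count, the value was -0.0039 for Psma8 and -0.0037 for Psmd10. With edgeR's filterByExpr, the value was -0.0099 for Psma8, -0.0032 for Psmb6, -0.0078 for Psmd10 and -0.0021 for Psmg3. With length-scaled counts, the value was -0.066 for Pomp, -0.032 for Psmb6, 0.036 for Psmd2 and -0.061 for Psmg3. With libraries 2 and 3 only, the value was -0.0042 for Psma8, 0.11 for Psmb11, -0.025 for Psmd3 and 0.060 for Psme2b. With library size only, the value was -0.0086 for Psma8, -0.00048 for Psmb6 and -0.0044 for Psmd10. With protein-coding transcripts only, the value was -0.28 for Adrm1, -0.15 for Psma8, -0.025 for Psmd5, -0.17 for Psme2 and -0.019 for Psmg3. With the replicate block, the value was -0.050 for Psma8. With median-of-ratios factors, the value was -0.0080 for Psma8, -0.0026 for Psmb6, -0.0078 for Psmd10 and -0.0020 for Psmg3. With a library left out, the ranges were -0.31 to 0.28 for Psma8, -0.37 to 0.19 for Psmb11, -0.079 to 0.12 for Psmb6, -0.11 to 0.063 for Psmd10, -0.17 to 0.13 for Psmd2, -0.097 to 0.079 for Psmd3, -0.055 to 0.064 for Psmd5, -0.16 to 0.027 for Psme2b, -0.032 to 0.099 for Psmf1, -0.083 to 0.14 for Psmg3 and -0.14 to 0.026 for Psmg4.

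The number of libraries limits these results: 3 against 3 with a spread between library numbers. The lowest members, Psmb11 and Psma8, rest on 225 and 477 reads, and counting error is largest there.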
